A study of Mus with 2 samples.

Results

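The renal vesicle stage cells described here were 683 of 11369 cell barcodes kept from 2 single-cell RNA libraries of newborn (P0) mouse kidney. Both libraries carried the genotype Rbpj c/- ; Foxd1cre/+: 1 conditional and 1 null allele of Rbpj, with Cre expressed from the Foxd1 locus, which is active in the progenitors of the renal interstitium. The study set such mutants against controls of the genotype Rbpj c/+ ; Foxd1cre/+; the control libraries are not analysed here, so nothing below measures an effect of the deletion. Transcripts were captured from cDNA 3' ends in droplets and counted as unique molecular identifiers (UMIs). The labels do not say whether the libraries came from separate animals.

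A barcode was kept with at least 2000 UMIs and at most 10% of them from mitochondrial genes. Members were chosen by their UMIs of 6 genes. A member had at least 2 UMIs of Lhx1, at least 1 of Wnt4, none of Six2, Irx1 or Pecam1 and at most 1 of Col3a1. Replicate 1 had 340 members among 6220 kept barcodes (5.47%, exact Clopper-Pearson 95% interval 4.91 to 6.06%), and replicate 2 had 343 among 5149 (6.66%, 6.0 to 7.38%). These intervals, like those below, cover counting error only. The mean share was 6.06% ± 0.845 (SD, n = 2). No member barcode sequence occurred in both libraries, and 6 kept barcodes did.

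The renal vesicle is the first epithelial structure of a nephron. Nephron progenitors that express Six2 are induced by Wnt9b from the ureteric bud, switch on Wnt4 and Fgf8, and condense and turn into an epithelial vesicle that expresses the transcription factor Lhx1. Notch signalling, in which the ligands Dll1 and Jag1 act on receptors of neighbouring cells and the DNA-binding protein Rbpj carries the signal to the genome, patterns the vesicle into a distal and a proximal side. Lhx1 (ENSMUSG00000018698) lies at chr11:84517975-84525534 and Wnt4 (ENSMUSG00000036856), which encodes a secreted Wnt ligand, at chr4:137277635-137299501, both as RefSeq gene spans on GRCm38.

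The genes of the rule are given as description only, because they chose the members. A member carried a median of 16 Lhx1 UMIs in replicate 1 and 18 in replicate 2, far above the required 2, and a median of 9.5 and 11 Wnt4 UMIs. Few barcodes sat at the Lhx1 threshold: 18 and 26 members had exactly 2 UMIs, and 54 and 41 barcodes that met every other condition had exactly 1. The Wnt4 condition removed more, since 249 and 247 barcodes failed only because they had no Wnt4 UMI, beside 47 and 46 members with exactly 1. Another 111 and 72 barcodes failed only on Six2, and 129 and 103 only on Irx1. Members were deeper than the rest, with medians of 20383.5 and 20840 UMIs against 11593.5 and 11834 in all other kept barcodes. Their median mitochondrial share was 4.96% and 5.11%, against 5.14% and 5.56%.

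Some members carried the markers of another epithelium. In replicate 1, 47 members (13.8%, 95% interval 10.3 to 18.0%) carried at least 3 of 5 markers of the ureteric bud and its collecting duct derivatives (Gata3, Ret, Wnt9b, Hoxb7 and Calb1), and in replicate 2, 44 did (12.8%, 9.48 to 16.8%). They are called ureteric-marker members below. Their median mitochondrial share was 6.50% and 6.58%, against 4.87% and 4.92% in the remaining members. Their median depth was 77858 and 52034.5 UMIs, so that they held 32.1% and 27.2% of all member UMIs, and the condition of 2 Lhx1 UMIs was met there at a low level. Lhx1 stood at 143 and 148 CPM (counts per 1000000 UMIs of the group in a library) in them, no higher than the 158 and 148 CPM of all other kept barcodes, and at 931 and 1055 CPM in the remaining 293 and 299 members. Calb1, a calcium-binding protein of ureteric epithelium, stood at 1016 and 811 CPM in the ureteric-marker members and at 1.47 and 1.06 CPM in the rest of the members. Because Calb1 is one of the 5 markers that made the split, this difference follows in part from it. This split was chosen after the data were seen, and counts of genes called below are given with and without these members. Members with at least 3 of 5 markers of podocytes numbered 17 and 10, of proximal tubule 33 and 20, and of the loop of Henle 17 and 11. The remaining 247 and 266 members reached 3 markers in none of the 4 sets, and they held 44.8% and 58.4% of all member UMIs.

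**Figure D1:**
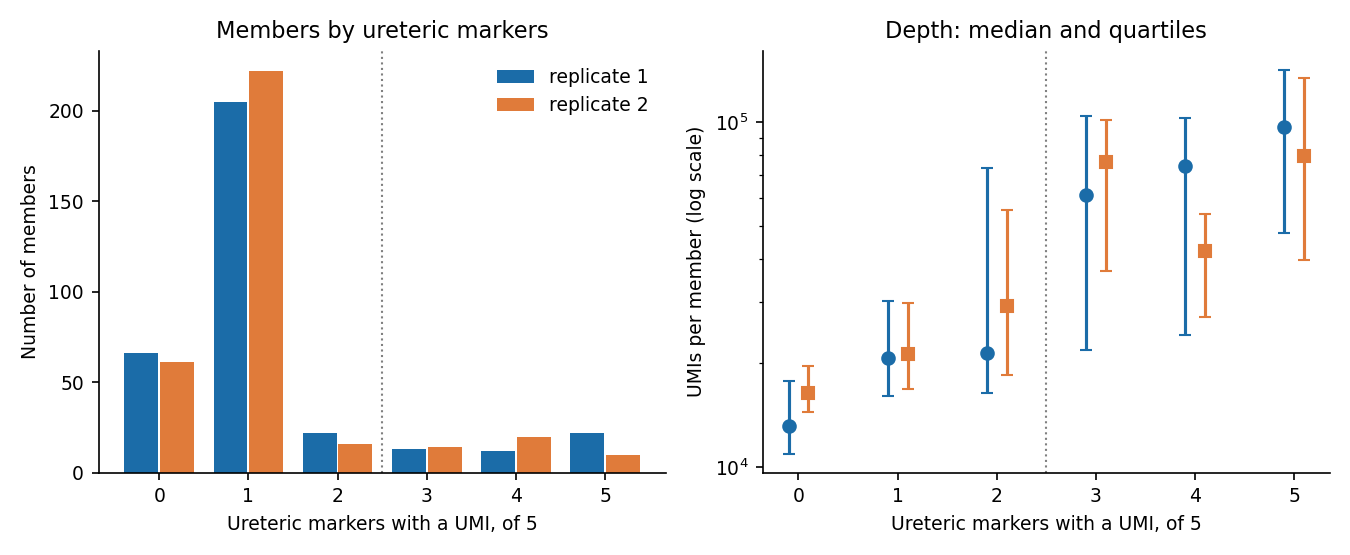
Members by how many of 5 ureteric markers had a UMI (x axis), as the number of members (left) and as median UMIs per member with quartiles on a log scale (right), per library. Most members had 1 marker (205 and 222); those right of the dotted line, with 3 or more, were few (47 and 44) and deeper.

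The 3 genes given with the class but not used by the rule were Npy, Cbln4 and Sfrp2. Npy, a neuropeptide (chr6:49822710-49829507), stood at 49.8 and 51.3 CPM in all members, at 64.3 and 67.7 CPM without the ureteric-marker members, and at 11.8 and 11.3 CPM in all other kept barcodes. In barcodes that failed only on Six2, Npy stood at 68.1 and 61.7 CPM, above the level in all members. It stood lower than in members where barcodes failed only on Wnt4 (6.72 and 4.98 CPM), Irx1 (11.8 and 9.46 CPM), Col3a1 or Pecam1. Cbln4, a secreted synapse-organising protein of the cerebellin family, stood at 19.1 and 22.3 CPM in members and at 2.62 and 1.5 CPM in the others. Sfrp2, a secreted Wnt modulator, stood at 112 and 129 CPM against 58.2 and 60.2 CPM. For all 3 genes both member values lay above both values of the others. They were chosen with these data in view, so no test is given for them here.

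Shares of barcodes with a UMI were compared after thinning each barcode to 5000 UMIs, which left out 10 and 2 shallower members and 741 and 585 others. An Npy UMI was then found in 25.5% and 20.8% of members (50.6% and 47.5% before thinning) and in 2.84% and 2.25% of the others (6.85% and 5.87%). In endothelial barcodes, taken as those with at least 2 Pecam1 UMIs and with medians of 9620 and 10214 UMIs, the thinned share was 0.627% in replicate 1, and in replicate 2 it was 0 of 426 barcodes, which allows a share of up to 0.704%. Hes5 gave 20.6% and 18.2% in members, 1.19% and 1.47% in the others and 0.313% and 0.235% in endothelial barcodes, and unthinned 33.2% and 31.8%, 3.47% and 3.20%, and 2.04% and 0.407%. A UMI of either gene was thus found in a minority of members at this depth, and in a larger share of them than of endothelial barcodes.

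**Figure D2:**
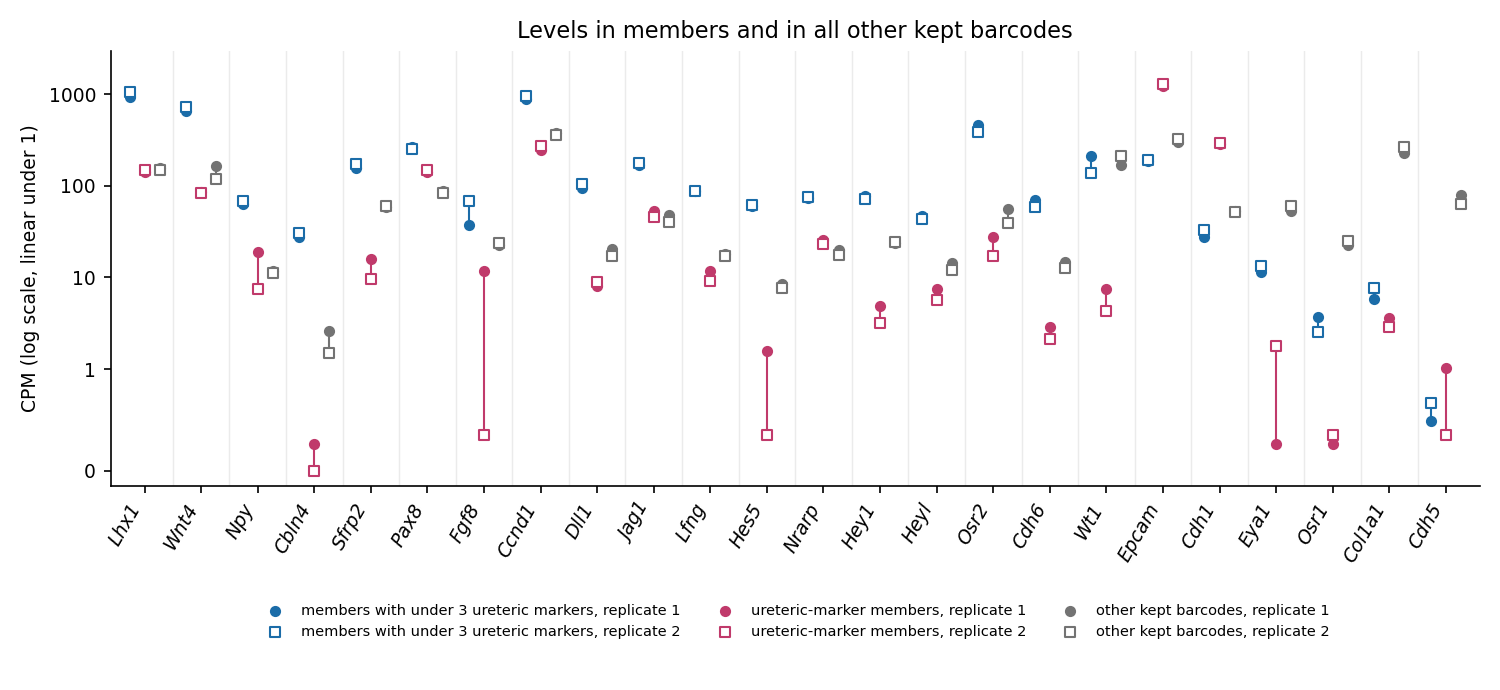
Level of 24 genes in CPM (log axis, linear under 1) in members with under 3 ureteric markers, in ureteric-marker members and in all other kept barcodes, per library. Hes5 stood at 60.9 and 61.2 CPM in the first group and at 8.51 and 7.66 CPM in the others, and Epcam was highest in the ureteric-marker members.

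Against all other kept barcodes, members were higher for most genes of the Notch, distal side and Wnt response lists, and lower for most nephron progenitor, stromal, endothelial and erythroid genes. Of 16431 genes tested on UMI sums per library with edgeR's quasi-likelihood test, 2890 were higher and 3526 lower at an adjusted p under 0.05, which is 17.6% and 21.5% of them; without the ureteric-marker members the counts were 3308 and 4169 (20.2% and 25.5%). The median log2 fold change of all tested genes was -0.01. Because the rule picks an identity, differences across the transcriptome follow from it, and each p only asks whether a difference repeated in both libraries beyond the spread between them.

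Besides the 3 genes just described, 5 renal vesicle markers were tested, of which 3 were higher and 0 lower, with a median log2 fold change of 0.73. Without the ureteric-marker members all 5 were higher, with a median of 1.22. Pax8, a transcription factor of the developing nephron, stood at 228 and 227 CPM in members and 87.4 and 83.1 CPM in the others. Its log2 fold change was 1.40 ± 0.05 (SE; adjusted p = 1.6e-06, edgeR). Ccnd1, the cyclin D1 gene, stood at 677 and 766 CPM against 383 and 357 CPM. Fgf8, the growth factor that Lhx1 expression depends on, stood at 29.3 and 50.3 CPM against 22.6 and 23.5 CPM, and its member libraries differed from each other more than those of Pax8 did. Uncx, a homeobox gene, did not pass over all members (log2 fold change -0.10, adjusted p = 0.19, edgeR) and was higher without the ureteric-marker members (0.46).

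In the Notch list, 9 of 17 tested genes were higher and 3 lower (median 0.52), and without the ureteric-marker members 9 were higher and 4 lower (median 0.75). Of the ligands, Dll1 stood at 67.2 and 79.6 CPM in members and 20.3 and 17.1 CPM in the others, a log2 fold change of 1.95 ± 0.12 (adjusted p = 2.0e-05, edgeR). Jag1 stood at 133 and 144 CPM against 48.2 and 40.0 CPM. The ligands Dll4 and Jag2 were lower, by log2 fold changes of -3.71 and -3.85, and were near 0 in members, at 0.499 and 0.290 CPM for Dll4. Of the receptors, Notch1 was higher by 0.83 ± 0.05 and Notch2 by 0.52 ± 0.07 on the log2 scale. Lfng, a glycosyltransferase that modifies Notch receptors, was higher by 1.85 ± 0.07, while its relative Mfng was lower (-3.49 ± 0.22).

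Notch target genes of the list were not uniform. Hes5, a transcriptional repressor induced by Notch, stood at 41.9 and 44.6 CPM in members against 8.51 and 7.66 CPM, a log2 fold change of 2.39 ± 0.09 (adjusted p = 2.8e-06, edgeR), the highest of the tested Notch genes. Nrarp, a feedback inhibitor of Notch, was higher by 1.63 ± 0.08, and the repressors Heyl and Hey1 by 1.33 ± 0.09 and 1.15 ± 0.06. Hes1 did not pass (171 and 150 CPM against 157 and 146 CPM). Rbpj, the gene deleted in the stroma of these kidneys, stood at 47.8 and 46.4 CPM in members and 46.4 and 47.4 CPM in the others (log2 fold change -0.01 ± 0.06, adjusted p = 0.87, edgeR). It was 0.22 ± 0.08 (adjusted p = 0.025, edgeR) when members with at least 3 markers of any of the 4 sets were left out. The labels do not state which exons the conditional allele loses, so a 3' count does not tell intact from recombined transcripts.

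**Figure D3:**
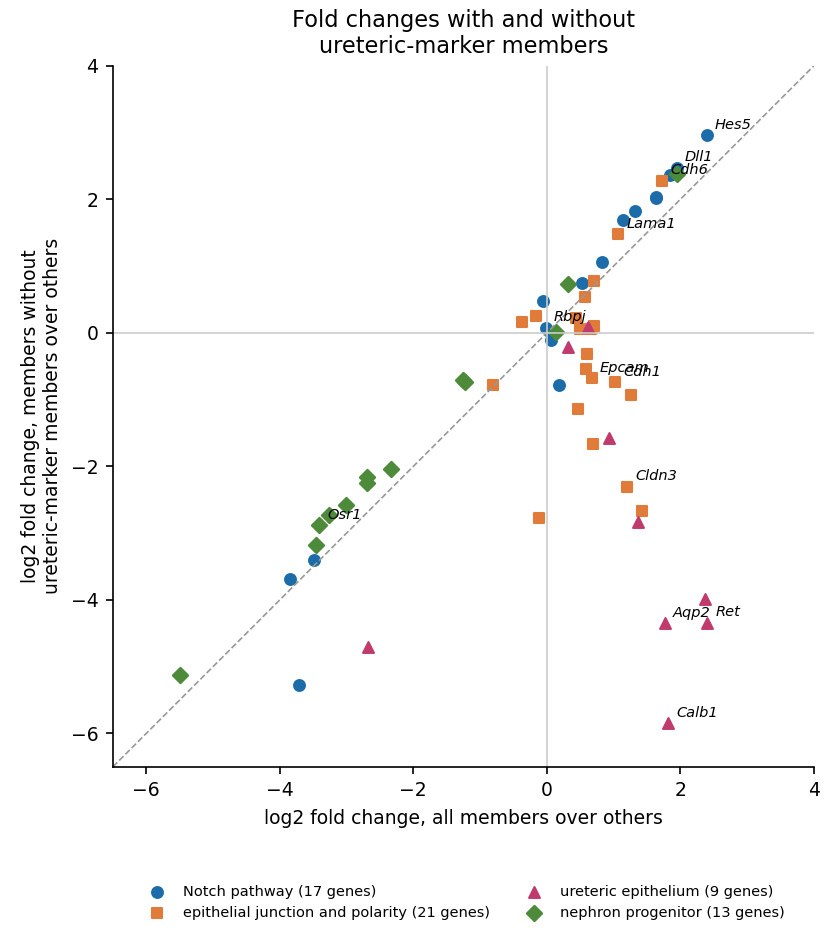
Log2 fold change of members over all other kept barcodes for the genes of 4 lists, with all members (x axis) and without the ureteric-marker members (y axis); the dashed line marks equal values. Hes5 and Dll1 lie above the line at 2.96 and 2.47 on the y axis, while Cdh1 and Epcam cross from above 0 to -0.74 and -0.68.

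Genes of both sides of the vesicle were present. Of 11 genes of its distal side, 8 were higher and 1 lower (median 1.19; without the ureteric-marker members also 8 and 1, median 1.34). Greb1 was higher by 1.19 ± 0.11 on the log2 scale and the ligand Bmp2 by 1.02 ± 0.09. Sox9 (1.27), Pou3f3 (0.45) and Mecom (0.11) are also ureteric genes, and without the ureteric-marker members their log2 fold changes were 0.23, -0.10 and -1.67. Of 8 genes of the proximal side, 2 were higher and 5 lower (median -0.46), and without the ureteric-marker members 4 and 3 (median 0.09). The higher ones were Osr2, a zinc finger transcription factor, at 327 and 289 CPM against 56.1 and 39.9 CPM, and Cdh6, a cadherin of early nephron epithelium, at 48.2 and 43.5 CPM against 14.7 and 12.6 CPM. The transcription factor Foxc2 was lower (-0.96 ± 0.15), as was Podxl (-1.84 ± 0.12).

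Of 13 tested nephron progenitor genes, 10 were lower and 3 higher (median -2.70; without the ureteric-marker members 10 and 2). Cited1, a marker of self-renewing progenitors, stood at 14.4 and 15.8 CPM against 150 and 177 CPM, and Meox1, a homeobox gene, at 0.166 and 0.581 CPM against 14.4 and 18.0 CPM. Eya1, a cofactor of Six2, was lower by -2.70 ± 0.09. The higher ones were Dapl1 (1.96 ± 0.17), Sall1 (0.32 ± 0.05) and Pax2 (0.15 ± 0.04), and Pax2 did not pass without the ureteric-marker members (0.02).

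Of 12 Wnt response genes, 9 were higher and 1 lower (median 0.71; without the ureteric-marker members 7 and 1). The transcription factor Lef1 was higher by 0.79 ± 0.08 and the feedback inhibitor Nkd1 by 1.02 ± 0.07, and Tcf7l1 was the lower one (-0.34 ± 0.07). Of 23 FGF and BMP pathway genes 9 were higher and 6 lower (without the ureteric-marker members 8 and 10), and among them the receptor Fgfr4 was higher by 0.88 ± 0.08 and Fgfr2 by 1.05 ± 0.07. Of 18 cell cycle genes 13 were higher and 3 lower both with and without the ureteric-marker members. Top2a, a topoisomerase of dividing cells, stood at 382 and 418 CPM against 275 and 268 CPM, and Cdkn1c, a cell cycle inhibitor, at 397 and 272 CPM against 898 and 991 CPM.

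The epithelial list turned on the ureteric-marker members. Of 21 junction and polarity genes 17 were higher and 2 lower over all members (median 0.67), but 5 and 10 without them (median -0.31). Epcam, an epithelial adhesion protein, stood at 524 and 492 CPM in all members, at 188 and 191 CPM without the ureteric-marker members and at 300 and 328 CPM in the others. Cdh1, the E-cadherin gene, went from 112 and 104 CPM to 27.8 and 33.0 CPM, against 53.3 and 51.5 CPM. The laminin genes Lama1 and Lamb1, which build basement membrane, were higher both ways, by 1.07 and 0.70 over all members and by 1.48 and 0.78 without. Of 8 mesenchymal genes 7 were lower and 1 higher in both cases. The higher one was Ncam1 (0.50 ± 0.04), and the lower ones included Cdh11 (-2.96 ± 0.09) and Vim (-2.23 ± 0.13).

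Lists of other cell types were lower in members than in the others, apart from the ureteric and distal nephron precursor lists. The 9 tested ureteric genes gave 8 higher and 1 lower over all members, and 0 higher and 7 lower without the ureteric-marker members. The second count is a description only, since members were left out for carrying such genes, 4 of the split's markers being in this list, while ureteric barcodes stayed among the others. The summed level of that list was 700.3 and 537 CPM in all members, 123 and 126 CPM without the ureteric-marker members, and 263 and 251 CPM in the others. All 9 tested stromal, 8 endothelial and 6 erythroid genes and all 9 podocyte genes were lower with and without the ureteric-marker members. The summed podocyte list was 436 and 287 CPM in members against 970 and 1054 CPM, so it was not at 0. The immune list gave 1 higher and 6 lower (0 and 7 without the ureteric-marker members), at 36.7 and 73.0 CPM against 314 and 265 CPM; the proximal tubule list gave 0 higher and 6 lower of 9 (3 and 6), at 417 and 335 CPM against 575 and 525 CPM. Of 10 distal nephron precursor genes 7 were higher and 3 lower, and without the ureteric-marker members 2 and 5; of these Emx2, a homeobox gene, was higher both ways (1.96 ± 0.06 and 2.04) and Gata3, a marker of the split, turned from 2.23 to -2.25. The summed distal precursor list was 696 and 663 CPM in all members against 469 and 438 CPM in the others.

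Outside the lists, genes with the highest fold changes included Fam159b (log2 fold change 3.41 ± 0.31), Lect2, which encodes a secreted protein (3.20 ± 0.25), the zinc transporter Slc30a3 (2.49 ± 0.20) and Frem3, a relative of the Fraser syndrome matrix proteins (2.44 ± 0.30). All 4 were higher without the ureteric-marker members too, but other leading genes were not. Of the 15 genes with the highest fold changes over all members, 9 were higher, 5 lower and 1 not called without the ureteric-marker members. The 5 were Ret and Wnt9b, which are markers of the split itself, March11 (2.96 over all members and -3.82 without the ureteric-marker members), Spink12 (2.49 and -2.70) and A930017K11Rik (2.47 and -4.000). Lect2 stood at 5.07 and 6.10 CPM in members and 0.614 and 0.566 CPM in the others, and so is a low-abundance gene. At the other end, Ngp, a neutrophil granule gene, and Agtr2, the angiotensin type 2 receptor gene, had no UMI in members in either library and were at least 156-fold and 39-fold lower (floor of 3 UMIs over the members).

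Members were next compared with 3 groups of related barcodes in the same libraries, to place them along nephron formation. Primed nephron progenitors (119 and 104 barcodes) had at least 2 Six2 UMIs and none of Cited1 or Lhx1. Distal nephron precursors (212 and 194) had Irx1 and Sim2, and proximal tubule precursors (208 and 128) had Osr2 and Cdh6 without Irx1 and did not meet the member rule; both lacked Six2. All 3 groups shared the limits on Col3a1 and Pecam1, and all 3 comparisons share the same members, so their values are given side by side and not as separate evidence. Genes used to define a group were not tested in its comparison.

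Against primed progenitors, members were higher for Notch, distal side and epithelial genes and lower for progenitor and mesenchymal genes. Of 13517 genes 2746 were higher and 1980 lower (20.3% and 14.6%), and without the ureteric-marker members 2128 and 1759 (15.9% and 13.1%). Of 14 tested Notch genes 11 were higher and 1 lower (median log2 fold change 1.43, against 0.03 over all genes), and without the ureteric-marker members 10 and 1. Hes5 had no UMI in primed progenitors of either library, which makes it at least 65.8-fold higher in members (floor of 3 UMIs over the progenitors). Dll1 stood at 1.90 and 1.03 CPM in progenitors against 67.2 and 79.6 CPM in members, a log2 fold change of 5.44 ± 0.57 (adjusted p = 1.4e-05, edgeR). Jag1 was higher by 3.17 ± 0.17, Notch1 by 3.58 ± 0.16 and Nrarp by 5.34 ± 0.41. Rbpj was the lower one, at 47.8 and 46.4 CPM against 62.7 and 56.2 CPM (-0.50 ± 0.11, adjusted p = 0.0047, edgeR). It did not pass when members with at least 3 markers of any of the 4 sets were left out (-0.35, adjusted p = 0.050, edgeR).

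Of 11 distal side genes, 10 were higher and 0 lower than in primed progenitors (median 4.13), and the counts were the same without the ureteric-marker members. Of 8 proximal side genes 4 were higher and 3 lower, and 5 and 3 without those members. Bmp2 was higher by 4.34 ± 0.48. Emx2 stood at 3.04 and 3.61 CPM in progenitors and 270 and 270 CPM in members. Ccnd1 was higher by 3.67 ± 0.13 and Osr2 by 4.61 ± 0.15. Of 12 progenitor genes 10 were lower and 1 higher (10 and 2 without the ureteric-marker members), among them Osr1 at 2.58 and 1.94 CPM against 64.2 and 67.5 CPM (-5.00 ± 0.24) and Eya1 (-4.36 ± 0.14). Of the 5 other renal vesicle markers 3 were higher and 2 lower, and 3 and 0 without the ureteric-marker members. The cell cycle list gave 5 higher and 1 lower of 18, beside 20.3% and 14.6% of all genes, and 9 and 0 without the ureteric-marker members.

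Adhesion genes differed in both directions from primed progenitors. Of 21 epithelial genes 17 were higher and 2 lower (median 2.96), and without the ureteric-marker members 16 and 2 (median 1.70). Lama1 stood at 163 and 172 CPM against 4.56 and 6.19 CPM, and the claudin gene Cldn6 at 81.8 and 84.8 CPM against 0.760 and 0.516 CPM. The polarity gene Crb3 was higher by 5.83 ± 0.26. Cdh1 was higher by 5.78 ± 0.25 over all members and by 3.96 without the ureteric-marker members. Cdh2, the N-cadherin gene, was lower (-2.07 ± 0.12), as were Cdh11 (-3.84 ± 0.13) and Snai2, a repressor of epithelial genes (-5.26 ± 0.27). In the Wnt response list 3 of 12 genes were higher and 3 lower (4 and 4 of 11 without the ureteric-marker members), beside 20.3% and 14.6% of all genes (15.9% and 13.1%). Lgr5 (4.21 ± 0.49) and Lef1 (1.23 ± 0.21) were higher, and the feedback inhibitor Notum (-2.27 ± 0.35), Sp5 (-1.34 ± 0.24) and Axin2 (-0.60 ± 0.18) lower.

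Against distal nephron precursors, members were higher for genes of the proximal side and Wnt response lists, and lower for more junction and polarity genes than they were higher for, while the other renal vesicle markers were mostly lower. Of 13517 genes 1766 were higher and 1480 lower (13.1% and 10.9%), and without the ureteric-marker members 2389 and 2397 (17.8% and 17.9%). Of the 5 other renal vesicle markers 1 was higher and 3 lower, with a median of -0.73, and the counts were the same without the ureteric-marker members (median -0.34). Pax8 was the higher one (0.77 ± 0.11). Uncx stood at 188 and 214 CPM in members against 434 and 411 CPM in distal precursors (-1.11 ± 0.08), and Ccnd1 and Cdh4, a cadherin gene, were lower too (-0.73 ± 0.10 and -0.87 ± 0.13). Fgf8 did not pass over all members (0.0066, adjusted p = 0.99, edgeR) and was higher when members with at least 3 markers of any of the 4 sets were left out (0.76). All 8 proximal side genes (median 1.97) and all 9 podocyte genes (median 2.06) were higher, with and without the ureteric-marker members. Leaving out members with at least 3 markers of any of the 4 sets, podocyte markers included, left 6 of 8 and 1 of 9 higher and 0 lower, with Podxl, one of the markers so used, at a log2 fold change of -0.70 in place of 2.81 and not called. Osr2 stood at 327 and 289 CPM against 20 and 15.6 CPM, and Wt1, a regulator of podocyte fate, at 146 and 101 CPM against 11.8 and 38.9 CPM. Of 12 Wnt response genes 8 were higher and 2 lower, and without the ureteric-marker members 7 and 3 of 11. Sp5 stood at 9.48 and 8.52 CPM against 0.222 and 0.140 CPM (5.44 ± 0.46), Nkd1 was higher by 2.72 ± 0.15, and Lgr5 was lower (-1.49 ± 0.15).

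Of 14 Notch genes 7 were higher and 2 lower than in distal precursors, and without the ureteric-marker members 9 and 2. Lfng (2.36 ± 0.22), Hey1 (1.35 ± 0.14) and Heyl (1.42 ± 0.15) were higher, and Hes1 was lower (-0.75 ± 0.11). Dll1 stood at 67.2 and 79.6 CPM against 56.0 and 27.1 CPM, and its distal libraries differed by more than its member libraries. Umod, which encodes the loop of Henle protein uromodulin, stood at 0.997 and 0.484 CPM in members against 168 and 279 CPM, and the distal transcription factor Irx2 at 0.831 and 1.26 CPM against 221 and 239 CPM. Tfap2b (-3.04 ± 0.32) and Papss2 (-2.46 ± 0.10) were lower too. Of 21 epithelial genes 4 were higher and 10 lower, and without the ureteric-marker members 2 and 17. Cdh1 then had a log2 fold change of -2.14 in place of -0.35, and Cldn3, which did not pass over all members (-0.26, adjusted p = 0.14, edgeR), one of -3.78. Lect2 had no UMI in distal precursors and was at least 29.9-fold higher in members. Ccnd2, the cyclin D2 gene, was higher (2.75 ± 0.13).

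Against proximal tubule precursors, members were higher for renal vesicle and cell cycle genes and lower for the proximal tubule genes of the list. Of 13516 genes 3149 were higher and 3246 lower (23.3% and 24.0%), and without the ureteric-marker members 3188 and 3318 (23.8% and 24.8%). All 5 other renal vesicle markers were higher, with and without the ureteric-marker members (median 3.39 over all members). Barcodes that met the member rule had been left out of the proximal group, and how far this count follows from that was not tested. Fgf8 stood at 0 and 0.262 CPM in proximal precursors against 29.3 and 50.3 CPM in members. The Wnt inhibitor Dkk1 was higher by 4.53 ± 0.35 and Uncx by 3.77 ± 0.11. Of 18 cell cycle genes 15 were higher and 3 lower both ways: Mcm5, a replication factor, was higher by 1.94 ± 0.17 and Mki67 by 1.51 ± 0.08, and Cdkn1a, a cell cycle inhibitor, was lower (-1.54 ± 0.14). All 9 proximal tubule genes were lower with and without the ureteric-marker members (median -3.93 over all members), among them the endocytic receptor Lrp2 at 143 and 126 CPM against 1108 and 1047 CPM, and the phosphate transporter Slc34a1 (-4.26 ± 0.18). Of 14 Notch genes 11 were higher and 0 lower, and without the ureteric-marker members 13 and 0, with Hes5 at 1.16 and 6.55 CPM in the proximal precursors. The epithelial list gave 9 higher and 5 lower of 20, and 5 and 12 without the ureteric-marker members.

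**Figure D4:**
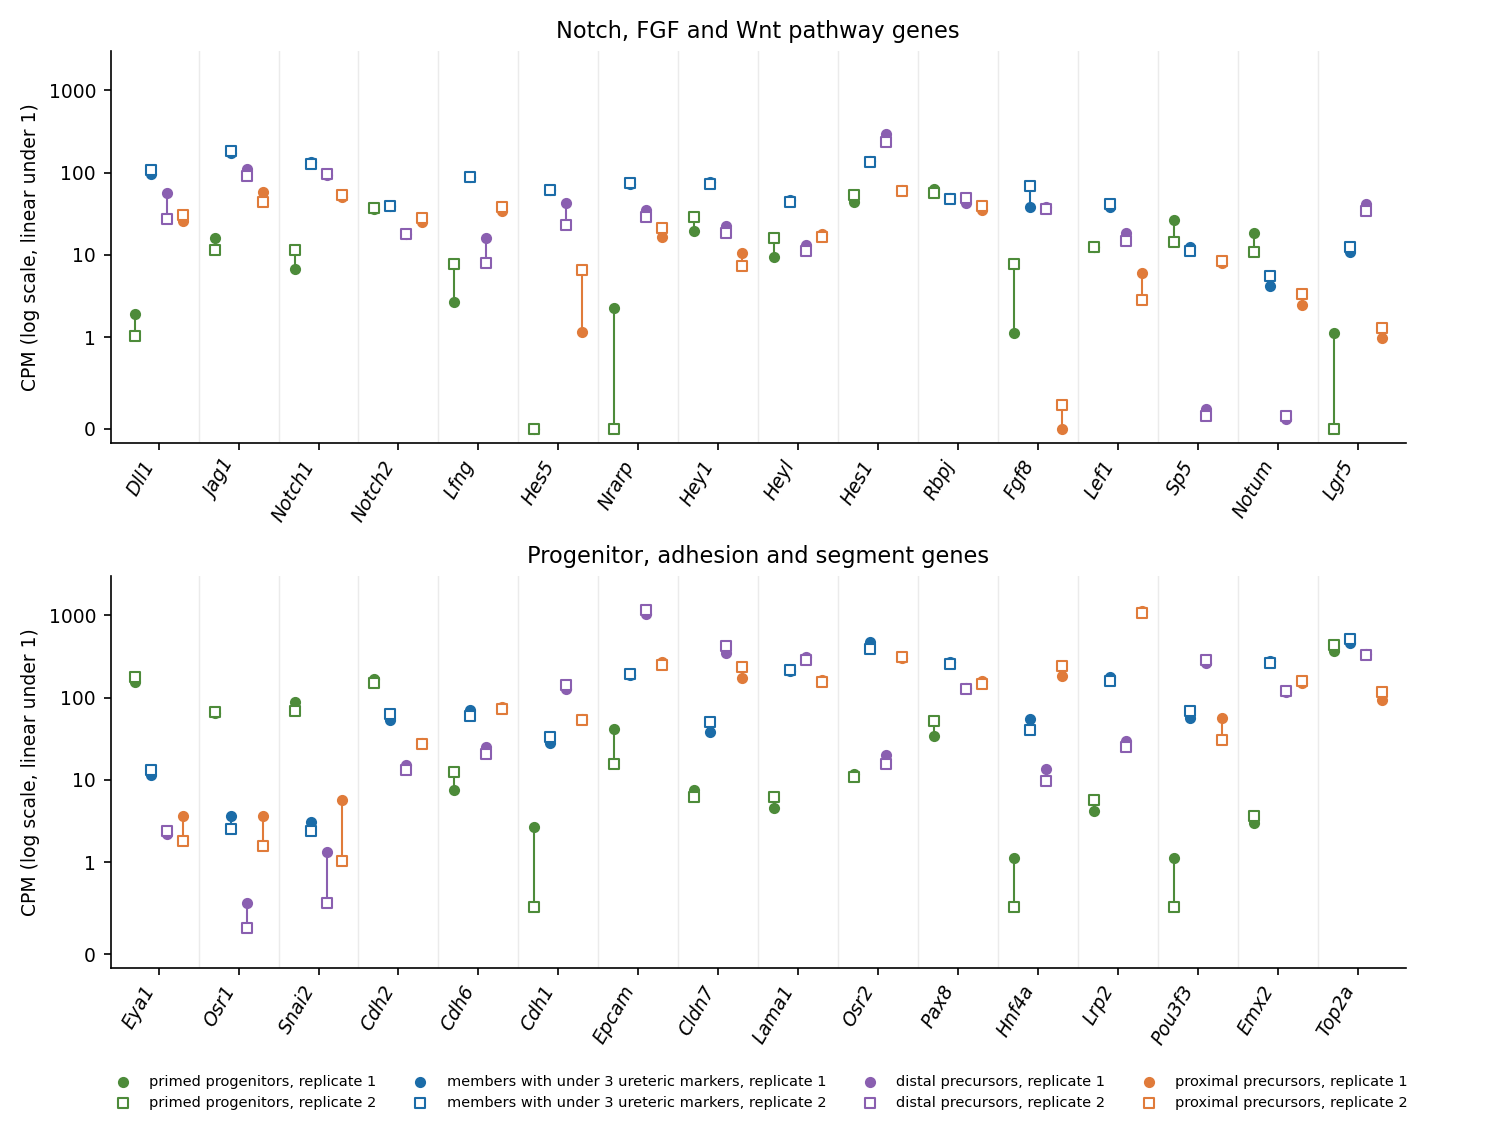
Level in CPM (log axis, linear under 1) of 32 genes in primed progenitors, members with under 3 ureteric markers, distal precursors and proximal precursors, per library. Hes5 is at 0 in both primed libraries, Eya1 and Osr1 are highest there, Sp5 is near 0 in distal precursors (0.222 and 0.140 CPM), and Lrp2 is highest in proximal precursors.

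Members were not uniform, and the distal gene Pou3f3 and the proximal gene Wt1 divided them. In replicate 1, 112 members had Pou3f3 without Wt1, 124 had Wt1 without Pou3f3, 54 had both and 50 neither; in replicate 2 the numbers were 97, 150, 49 and 47. Thinned to 5000 UMIs, 22.7% and 20.5% had only Pou3f3, 27.6% and 28.2% only Wt1, 3.03% and 3.52% both, and 46.7% and 47.8% neither. Before thinning, 15.9% and 14.3% had both and 14.7% and 13.7% neither, so that these shares, and the sizes of the sides, depend on depth. Of the ureteric-marker members 37 and 35 were on the Pou3f3 side and 0 and 1 on the Wt1 side. Removing them left 75 and 62 on the Pou3f3 side and 124 and 149 on the Wt1 side, with median depths of 20622 and 19977.5 UMIs against 19360 and 20176.

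Between the sides, 1845 of 12101 genes were higher and 1300 lower on the Pou3f3 side over all members (15.2% and 10.7%). Without the ureteric-marker members 597 of 11174 were higher and 765 lower (5.34% and 6.85%), fewer by over 1.5 times. Values in the next 2 paragraphs leave those members out, with the value over all members where the call differs. Both genes that formed the sides were left out of the tests.

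On the Pou3f3 side, 9 of 10 distal side genes were higher and 0 lower (median 2.41), against 6 and 0 over all members. Dll1 stood at 213 and 213 CPM on the Pou3f3 side and 14.3 and 27.8 CPM on the Wt1 side (log2 fold change 3.41). Sox9, a transcription factor, stood at 189 and 197 CPM against 4.58 and 3.41 CPM, and Dkk1 at 116 and 140 CPM against 4.05 and 7.88 CPM. Of 14 Notch genes 6 were higher and 1 lower, against 4 and 4 over all members. Hes5 stood at 134 and 96.2 CPM against 12.4 and 22.3 CPM (2.78), and Jag1 at 218 and 221 CPM against 106 and 132 CPM (0.95, and 0.02 with adjusted p = 0.91 by edgeR over all members). Hey1 stood at 69.6 and 65.2 CPM against 80.6 and 70.6 CPM and did not pass, whereas over all members it was lower on the Pou3f3 side (-1.35, adjusted p = 5.4e-06, edgeR). Notch2 was lower on that side (-0.72). Fgf8 stood at 60.7 and 149 CPM against 7.28 and 23.6 CPM. The distal genes Sim1 (5.83) and Tfap2b (5.75) and the junction genes Cdh1 (1.96) and Cldn7 (2.99) were higher. Of 21 epithelial genes 11 were higher and 3 lower, against 13 and 4 over all members.

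On the Wt1 side, all 9 podocyte genes were higher, with and without the ureteric-marker members, and 5 of 7 proximal side genes (7 of 7 over all members). Podxl, a podocyte surface sialomucin, stood at 198 and 113 CPM on the Wt1 side and 2.09 and 3.26 CPM on the Pou3f3 side, and Nphs1, the nephrin gene, at 113 and 61.4 CPM against 5.76 and 4.89 CPM. Osr2 was found on both sides, at 638 and 531 CPM against 196 and 146 CPM. All 6 tested mesenchymal genes were higher on the Wt1 side, Vim among them at 196 and 262 CPM against 18.3 and 23.4 CPM. Lect2 stood at 13.2 and 9.72 CPM against 0.523 and 3.8 CPM, and Npy at 72.3 and 80.6 CPM against 54.9 and 26.6 CPM. Cdkn1c stood at 1093 and 608 CPM against 93.2 and 95.6 CPM, while Mki67 did not pass (252 and 348 CPM against 355 and 261 CPM). Emx2 did not pass either, at 233 and 233 CPM against 296 and 273 CPM. These sizes rest in part on members with markers of podocytes, proximal tubule or the loop of Henle. Leaving those out as well moved the log2 fold change of the Pou3f3 side over the Wt1 side from -3.06 to -0.82 for Cdkn1c, from -3.40 to -2.25 for Vim and from -3.95 to -1.53 for Nphs1. Lect2 moved from -2.34 to -1.38 and lost its call (adjusted p = 0.18, edgeR), while Emx2 passed at 0.46 (adjusted p = 0.0044, edgeR). The mesenchymal list then gave 4 of 6 lower on the Pou3f3 side. Without members of any of the 4 sets the counts were 487 higher and 468 lower on the Pou3f3 side (4.83% and 4.64% of the genes tested), and Podxl was then too low to be tested; of the 5 podocyte genes that still were, 4 were lower on the Pou3f3 side.

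**Figure D5:**
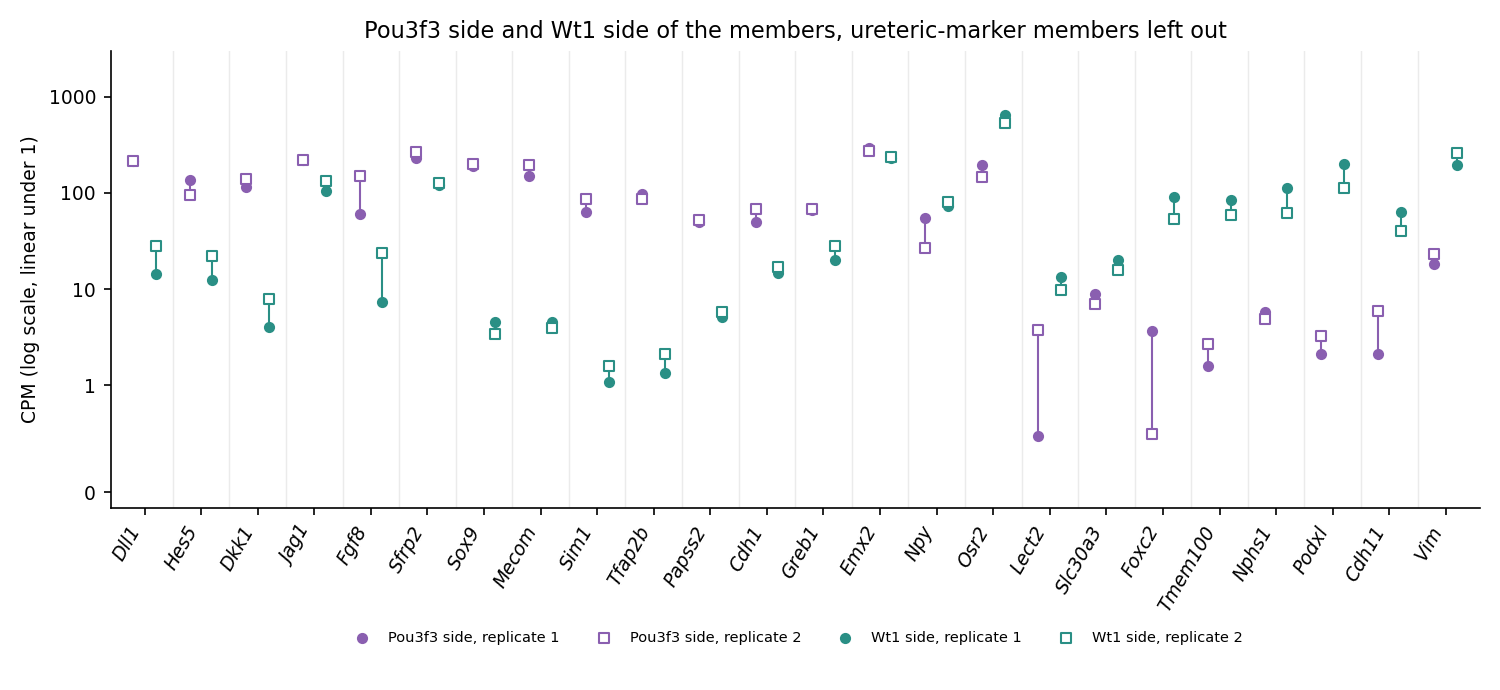
Level in CPM (log axis, linear under 1) of 24 genes on the Pou3f3 side and the Wt1 side of the members, per library, with ureteric-marker members left out. Dll1 (213 and 213 CPM) and Sox9 are high on the Pou3f3 side, Podxl and Nphs1 on the Wt1 side, and Emx2 is similar in height on both.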

How the data were processed

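The 2 single-cell RNA libraries of the mutant group were analysed; the control libraries are not analysed here. The deposited values are raw UMI counts per gene and barcode for all barcodes. Cell Ranger 4 wrote them per the file headers, while the submitters' processing notes list Cell Ranger 6.0.1 and the mm10 build; which of them made the files is not settled. The matrices held 2720964 and 2654938 barcodes, 28693 features and 163405630 and 135436576 UMIs. Of barcodes with at least 2000 UMIs, 690 and 768 exceeded the mitochondrial limit and 6220 and 5149 were kept. Doublets were kept, as the member rule does, and removed in an alternative: the highest Scrublet scores at 0.8% per 1000 barcodes took out 310 and 212 barcodes, 13 and 8 of them members.

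UMIs were summed per library and group and tested with edgeR 4.0.16 (quasi-likelihood test, TMM scaling, filterByExpr, Benjamini-Hochberg adjustment over all genes tested, threshold 0.05) in R 4.3.3. The library was a block, since the groups compared come from the same library; each p rests on the spread between 2 libraries, which may be technical. The libraries were counted as separate samples because the labels list them so, and no member barcode occurred in both. DESeq2 1.42.0 was an alternative. Genes that defined the groups of a comparison were not tested in it; the markers used to leave members out were, and their values then follow in part from that choice. The members, the 18 gene lists and the rule for named genes were chosen with earlier results of these data known. Named genes are those of the lists and up to 15 per direction with the largest fold change among called genes that moved the same way in both libraries and had at least 20 UMIs in each. Gene spans were matched by symbol to RefSeq's GRCm38.p6 table (323 of 329 genes). On simulated counts for members against all others (16204 genes), 81 of 100 genes changed 2-fold and 95 of 99 changed 4-fold were recovered, with 3 false calls. The other comparisons recovered 72 of 98 (primed, 13139 genes), 90 of 100 (distal, 13110), 79 of 96 (proximal, 13082) and 79 of 98 (sides, 11893) genes changed 2-fold, and 92 of 96, 93 of 97, 95 of 98 and 94 of 99 changed 4-fold, with 10, 10, 6 and 4 false calls. Sums weight deep barcodes more than shallow ones.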

Additional observations from a re-analysis of the deposited data

Results flagged for a closer look

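EYFP, a feature added to the reference that the results above do not describe, had UMIs in the members: 62 in replicate 1 and 116 in replicate 2, more than the 3 UMIs that a count of 0 allows. The labels do not say what EYFP reports in these mice. The UMIs fell in 37 and 31 members (10.9% and 9.04%) and came to 5.15 and 11.2 CPM. In all other kept barcodes EYFP stood at 67.6 and 63.7 CPM, with a UMI in 32.3% and 30.6% of them. In the test against these others its log2 fold change was -3.06 (adjusted p = 4.0e-05, edgeR). Without the ureteric-marker members the level was 4.65 and 13.6 CPM. On the Pou3f3 side it then stood at 2.09 and 1.63 CPM, from 4 and 3 UMIs, against 6.47 and 9.45 CPM on the Wt1 side (-2.002, adjusted p = 0.021, edgeR), while over all members that difference did not pass (-0.97, adjusted p = 0.073, edgeR). Primed nephron progenitors had 12.2 and 5.67 CPM, distal nephron precursors 9.67 and 17.3 CPM and proximal tubule precursors 8.82 and 3.67 CPM. Whether free RNA contributed to these UMIs was not tested.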

How the results depend on the processing

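Alternatives were run on the calls of each comparison, on the share of members and on the log2 fold changes of 216 gene and comparison pairs. With DESeq2's size factors in edgeR and with doublets removed, none of the 216 gained or lost a call or, where called, changed sign, and no called pair changed sign in either library alone. For genes named for a large fold change, the same sign in both libraries was a condition of being named. Without the replicate block 206 pairs stayed called or not called as before and 10 lost their call; the calls fell from 6416 to 5274 against all other barcodes, from 4726 to 4392 against primed progenitors, from 3246 to 2541 against distal precursors, from 6395 to 5857 against proximal precursors and from 3145 to 2631 between the sides. With 1 library left out no residual degree of freedom remains, so no calls were counted there; the share of members was then 5.47 to 6.66%. With DESeq2's Wald test 200 pairs stayed as before and 16 lost their call, and the calls were 3394 against all other barcodes, 1759 against distal precursors and 1164 between the sides. A mitochondrial limit of 5% gave 830 calls against primed progenitors, 1502 against distal precursors, 984 against proximal precursors and 1177 between the sides, and a share of members of 7.14%; it left fewer barcodes. Thinning to 5000 UMIs gave 1988, 1796 and 3122 calls against primed, distal and proximal groups, from fewer UMIs. Without the ureteric-marker members 1362 genes were called between the sides. Leaving out members with 3 markers of any of the 4 sets gave 5516 calls against distal precursors, 955 between the sides and a share of 4.57%. Both of these last settings were chosen after the data were seen. The low-count filter and a minimum of 5000 UMIs kept every count of calls within 1.5 times, as did Lhx1 thresholds of 1 and 3 UMIs in the 4 comparisons of members with other barcodes. The Lhx1 thresholds and thinning were not run between the sides.

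Some log2 fold changes against all other barcodes changed sign. Under the 5% limit Uncx was 0.45, Mecom -1.04 and Epcam -0.090, and after thinning Uncx was 0.96 and Mecom -0.65. Without the ureteric-marker members, and without members of any of the 4 sets, Uncx was 0.46 and 0.85, Mecom -1.67 and -1.44, Epcam -0.68 and -0.65, Cdh1 -0.74 and -0.60, Gata3 -2.25 and -1.80, Ret -4.34 and -5.35, Aqp2 -4.35 and -3.95, March11 -3.82 and -3.30, Spink12 -2.70 and -3.15, and A930017K11Rik -4.000 and -3.45. Pou3f3 was -0.10 without the ureteric-marker members and Rbpj 0.22 without members of any set. Without members of any set Podxl was -0.70 and Ccnd1 0.037 against distal precursors. Between the sides Sfrp2 was 0.73, 1.07 and 1.003 and Ccnd1 0.18, 0.51 and 0.26 under the 5% limit, without the ureteric-marker members and without members of any set. Where the members left out carry the markers concerned, the change follows from leaving them out; otherwise the cause was not tested.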

Other observations

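FGF ligands differed between the stages. Fgf20, a ligand of nephron progenitors, stood at 7.22 and 9.80 CPM in primed progenitors and at 0.0831 and 0.194 CPM in members, a log2 fold change of -5.94 ± 0.58 (adjusted p = 2.8e-05, edgeR's quasi-likelihood test). Fgf8 went the other way, from 1.14 and 7.73 CPM to 29.3 and 50.3 CPM (3.12 ± 0.42). Etv4, a transcription factor induced by FGF and Ret signalling, stood at 44.6 and 37.1 CPM in members, 20.9 and 26.6 CPM without the ureteric-marker members, and 2.83 and 0.786 CPM in proximal tubule precursors (4.23 ± 0.32 over all members). Over the whole FGF and BMP list the members were higher for 10 and lower for 6 of 23 genes against primed progenitors, for 6 and 7 against distal precursors and for 13 and 4 against proximal precursors. Without the ureteric-marker members these counts were 9 and 7, 7 and 8, and 10 and 4. Of all genes tested, 20.3% were higher and 14.6% lower against primed progenitors, 13.1% and 10.9% against distal precursors and 23.3% and 24.0% against proximal precursors. Those shares were 15.9% and 13.1%, 17.8% and 17.9%, and 23.8% and 24.8% without the ureteric-marker members.

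Slc12a1, the sodium, potassium and chloride cotransporter gene of the loop of Henle, differed between the libraries within the members: 63.9 CPM in replicate 1 and 3.68 CPM in replicate 2. Of the 769 Slc12a1 UMIs in replicate 1, 665 came from a single barcode. It carried at least 3 of the 5 loop of Henle markers, of which Slc12a1 is one. In members with under 3 of these markers Slc12a1 stood at 4.13 and 3.16 CPM. It stood at 170 and 165 CPM in all other kept barcodes, where the libraries were close. This gene was chosen after its values were seen.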
